A study of Homo sapiens with 8 samples.

Results

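The genes described here are 49 interferon-stimulated and RNA-sensing genes, measured in SAS cells transfected with 1 of 3 microRNAs or a negative control. SAS is an established line of human tongue squamous cell carcinoma. A gene was taken when its symbol was on the list and a gene probe of the array carried that name, and all 49 were on the array, with 67 of the 58201 gene probes and 49 of 43317 gene names. In each group the cells received 25 nM of RNA and, per the labels, were harvested after 48 h, and 100 ng of total RNA was taken for 1-colour hybridisation. The RNA was miR-629-3p on 2 arrays, NC, a negative control RNA, on 2, miR-874-3p on 2 and miR-210-3p on 2. The methods of the study give a shorter time to extraction and name the cells SAS/GFP, SAS carrying a GFP vector that every group then shares. The labels do not say that the 2 arrays of a group came from separate cultures, so each p-value measures the spread between arrays, which may be technical. Neither source gives the sequence of NC. The methods name different suppliers for the microRNA mimics and for NC. In comparisons with NC the supplier and the microRNA therefore cannot be told apart.

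Interferon-stimulated genes are transcribed when type I or type III interferon binds its receptor and the kinases JAK1 and TYK2 activate STAT proteins, of which STAT2 acts with IRF9 on a DNA motif in the promoters. Upstream of interferon, cells detect double-stranded RNA through RIG-I (gene DDX58) and MDA5 (IFIH1) in the cytoplasm and through TLR3 in endosomes. IRF transcription factors can also act on some of these promoters directly. The encoded proteins bind viral RNA, degrade RNA, block the entry or budding of viruses, or carry the ubiquitin-like protein ISG15. Many of these genes have a basal level in epithelial cells without infection.

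The 3 transfected microRNAs are the agents that the groups differ in, so their mature sequences are shown, as given by RefSeq for GRCh38.p14, 5′ to 3′, with the seed (bases 2 to 8) in capitals. All 3 lie on the minus strand, at chr15:70079387-70079408 (miR-629-3p), chr5:137647582-137647603 (miR-874-3p) and chr11:568112-568133 (miR-210-3p). No seed was shared between them.
miR-629-3p: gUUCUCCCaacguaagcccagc
miR-210-3p: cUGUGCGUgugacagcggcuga
miR-874-3p: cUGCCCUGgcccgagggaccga

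Levels are given as log2 signal relative to the 75th percentile of gene probes on that array, so 0 is the signal of that percentile and 1 is 2-fold above it. Levels of different genes come from different probes and are not compared with each other. Between 42.2% and 49.8% of probes were well above background on an array, the scanner software's test of a spot against its background, and no spot was saturated. All 8 arrays lay on 1 slide, where row 1 of the slide held miR-210-3p and miR-629-3p, and row 2 held NC and miR-874-3p. Comparing miR-629-3p to miR-210-3p, or miR-874-3p to NC, was therefore possible within a row, while for the other comparisons the row and the group cannot be told apart. All 10 markers of squamous epithelium were well above background on every array. Of the markers of other cells, 2 of 9 for leukocytes, 1 of 8 for fibroblasts and 2 of 6 for endothelium were well above background on every array, and the B-cell marker MS4A1 was above it on none. The summed linear signal of the leukocyte list was 2.93 to 4.37 and overlapped between the groups. The endothelial sum was 2.57 and 2.79 after miR-629-3p and 1.43 to 1.89 on the other arrays. Its gene VWF had a log2 signal of 0.96 and 1.11 after miR-629-3p and 0.21 and 0.07 with NC. The fibroblast sum was 0.97 and 2.13 after miR-210-3p and 0.63 to 0.691 on the others. In that list COL1A1 was -1.63 and 0.53 after miR-210-3p and -3.52 and -3.37 with NC, while 5 genes were above background on no array. The sum of the squamous list was 544 on both miR-210-3p arrays, 602 and 611 after miR-629-3p, 651 and 747 after miR-874-3p, and 720 and 757 with NC, and of that list the keratin genes KRT5, KRT14 and KRT17 fell with miR-210-3p at 2-fold or more (-1.25, -1.11 and -1.01, adjusted p = 0.0268, 0.018 and 0.0169). SFN, the brightest of the list, differed from NC by -0.96 with miR-210-3p (limma, adjusted p = 0.0128). The list did not move as 1, since EPCAM and CDH1 lay above NC with miR-210-3p, at 0.39 and 0.17 (limma, adjusted p = 0.052 and 0.417). The miR-210-3p arrays, on which most members were lowest, thus also had the lowest squamous sums. The part of any of these lists in the results was not tested.

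Of the 49 members, 46 could be tested, 42 of them well above background on all 8 arrays. The members not tested were IFNB1, the gene of interferon beta, above background on no array, and RSAD2 and XAF1, each above it on 1 miR-629-3p array. RSAD2 encodes viperin, an antiviral enzyme, and XAF1 a pro-apoptotic protein. With miR-210-3p, 45 of the 46 tested members had a lower mean than with NC, the exception being EIF2AK2, whose log2 difference was 0.04. Over all genes tested, 57.6% lay above NC with miR-210-3p. The median log2 difference of the members from NC was -0.43, beside 0.05 over all 21283 genes tested. With miR-629-3p the members divided, with 26 above NC (56.5%), near the 53.2% of all genes. The members' median was 0.06, beside 0.02 over all genes. With miR-874-3p, 2 of 46 lay above NC (4.35%, beside 48.8% of all genes), and the median was -0.31, beside -0.01. Of the 4 groups, miR-629-3p gave the highest mean for 26 members and miR-210-3p the lowest for 31, while miR-210-3p gave the highest for 0. The shares of all genes for these ranks were not counted. The arrays measure RNA from whole cultures, in which fewer responding cells and less RNA per cell cannot be told apart.

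**Figure D1:**
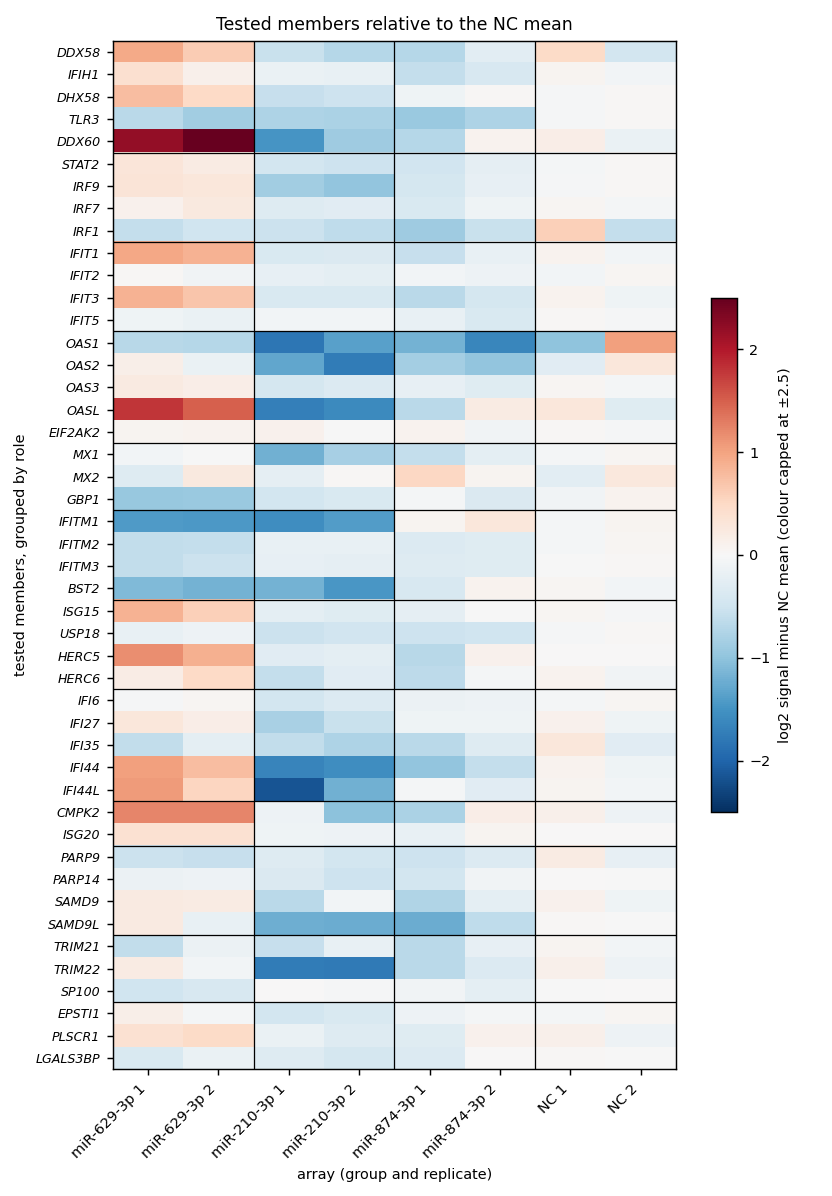
Log2 signal of the 46 tested members on each of the 8 arrays (columns), minus the mean of the NC arrays, with members in rows grouped by role and the colour capped at 2.5 in either direction. DDX60, OASL, IFIT1, IFIT3, ISG15 and IFI44 are higher on both miR-629-3p arrays, IFITM1 and BST2 are lower on both miR-629-3p and both miR-210-3p arrays, and most members are lower with miR-210-3p.

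The first comparison asked how the members stood in miR-629-3p-transfected cells against NC. Fold changes and p-values come from limma fitted on all 8 arrays, adjusted by the Benjamini-Hochberg method over all genes tested, and the standard error (SE) is that of the fitted log2 difference. At an unadjusted p under 0.05 and a change of at least 2-fold, the threshold in the results of the study, a gene was called. On this rule 4 members were called higher (DDX60, OASL, HERC5 and CMPK2), where 3.62% of all genes were, and 2 lower (IFITM1 and BST2), where 1.64% were. With an array left out, the members' median log2 difference from NC was 0.06 to 0.14. At an adjusted p under 0.05 and any fold change, the threshold for "rose" and "fell" here, 8 members rose (8 of 46, or 17.4%, beside 9.28% of all genes) and 7 fell (15.2%, beside 7.47%). The members that rose were DHX58, DDX60, IFIT1, IFIT3, OASL, ISG15, IFI44 and ISG20. Those that fell were TLR3, GBP1, IFITM1, IFITM2, IFITM3, BST2 and SP100. Both miR-629-3p arrays lay above both NC arrays for 22 members, with a background of 35% of genes, and below both for 13, with a background of 30.5%. Of the 15 adjusted calls, only IFITM1 kept an adjusted p under 0.05 whichever of the 8 arrays was left out, although no direction turned. Without NC replicate 2, 0 of the 8 higher and, without miR-629-3p replicate 1, 2 of the 7 lower members kept it. After normexp background correction 2 members were called higher and 1 lower, with 130 and 105 of all genes in place of 770 and 350.

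Against NC, miR-210-3p-transfected cells had 11 members called lower, where 1.15% of genes were, and 0 called higher, where 1.99% were. Among the 11 was IFI44L, which was not well above background in either group. The other 10 were well above it on an array of at least 1 of the 2 groups. These were DDX60, OAS1, OAS2, OASL, MX1, IFITM1, BST2, IFI44, SAMD9L and TRIM22. With miR-210-3p, TRIM22 was well above background on 0 of 2 arrays and OAS2 on 1. With adjustment, 15 fell (14 without IFI44L), beside 2.2% of all genes, and 0 rose, beside 3.85%. Without adjustment, 31 of 46 members were lower at p under 0.05, beside 9.5% of all genes, and 0 were higher, beside 16.5%. Both miR-210-3p arrays lay below both NC arrays for 41 members, with a background of 24.1%. The adjusted p of these 15 calls was not stable when an array was left out, but their differences stayed below 0. Without miR-210-3p replicate 1 the differences ran from -0.35 (IFI6) to -1.77 (TRIM22), where all arrays gave -0.40 and -1.76. The members' median log2 difference was -0.48 to -0.39 with an array left out. The count called lower without adjustment was 7 by the t-test of the methods (155 of all genes in place of 245) and 1 after normexp background correction (47 of all genes).

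In miR-874-3p-transfected cells 0 members were called higher, where 1.51% of genes were, or lower, where 0.507% were. With adjustment limma gave 1 lower member, TLR3, beside 0.207% of genes, and 0 higher, beside 0.216%. That call was lost in 7 of the 8 fits with an array left out. Without adjustment 17 members were lower at p under 0.05, beside 8.52% of all genes, and 0 higher, beside 7.86%. Both arrays lay below both NC arrays for 27, with a background of 23.2%. This comparison lay within slide row 2, and it shares the NC arrays with the others. With an array left out, the members' median log2 difference from NC was -0.47 to -0.22.

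Set directly against each other within slide row 1, miR-629-3p and miR-210-3p differed in more members than either did from NC. Of the 46, 15 were called higher with miR-629-3p, where 3.2% of genes were, and 0 lower, where 2.41% were. After adjustment, 25 were higher, beside 9.83% of genes, and 4 lower, beside 12.7%, namely GBP1, IFITM2, IFITM3 and SP100, of which 0 held without miR-210-3p replicate 1. The median log2 difference of the members was 0.54, beside -0.02 over all genes, and 40 of 46 lay above 0 (87%, beside 47.4% of all genes). The 15 called were DDX58, DHX58, DDX60, IRF9, IFIT1, IFIT3, OAS2, OASL, ISG15, HERC5, IFI44, IFI44L, CMPK2, SAMD9L and TRIM22. Among them IFI44L was well above background on the 2 miR-629-3p arrays only. It thus entered the tests through the group where it was high, and its place among the 15 and the 25 is no support. Of the 25 adjusted calls, 9 held whichever array was left out: DHX58, DDX60, IRF9, IFIT1, IFIT3, OASL, ISG15, IFI44 and TRIM22. Leaving out miR-629-3p replicate 1 kept the fewest, 9. Normexp background correction gave 6 members called higher in place of 15, with 165 genes of all in place of 681.

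Against miR-874-3p, miR-629-3p-transfected cells had 8 members called higher, where 2.83% of genes were, and 1 lower, IFITM1, where 2.31% were. The median difference was 0.43, beside 0.03 over all genes. With an array left out it was 0.33 to 0.52. The 8 higher were DDX58, DDX60, IFIT1, IFIT3, OASL, HERC5, IFI44 and CMPK2. Between miR-210-3p and miR-874-3p, 5 members were called lower with miR-210-3p, where 2.18% of genes were, and 0 higher, where 1.58% were. They were OASL, IFITM1, BST2, TRIM22 and IFI44L, the last not well above background in either group. The members' median difference was -0.27 to -0.01 in this comparison with an array left out. IFITM1 was the member whose adjusted p stayed under 0.05 in that comparison whichever array was left out.

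**Figure D2:**
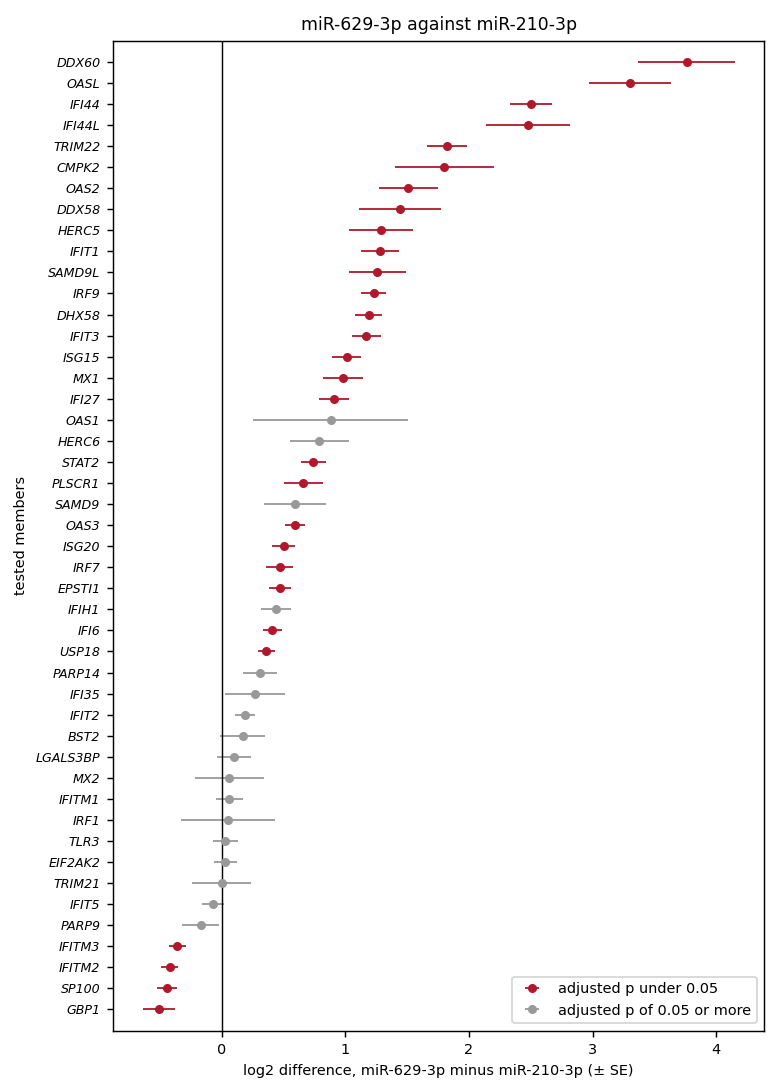
Fitted log2 difference of miR-629-3p minus miR-210-3p (points, x axis) with the standard error (bars) for the 46 tested members (y axis), coloured by whether the adjusted p was under 0.05. The differences run from DDX60 at 3.76 to GBP1 at -0.51, and 25 members are higher and 4 lower with miR-629-3p at an adjusted p under 0.05.

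Among the RNA sensors, DDX60 changed most. DDX60 encodes a helicase that acts with RIG-I, and its probe lies at chr4:169142891-169142950 (hg19, the build of the array's annotation). Its log2 signal was 1.97 and 2.74 after miR-629-3p, -1.69 and -1.11 after miR-210-3p, -0.93 and -0.14 after miR-874-3p, and -0.05 and -0.39 with NC. Both miR-629-3p arrays were above all 6 others, and both miR-210-3p arrays were the lowest. The difference between miR-629-3p and NC was 2.58 (SE 0.39, adjusted p = 0.0146, limma), or 5.97-fold, and that between miR-629-3p and miR-210-3p was 3.76 (SE 0.39, adjusted p = 0.00511), or 13.6-fold. With miR-210-3p it was called lower than NC without adjustment only (-1.18, SE 0.39, adjusted p = 0.131).

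DHX58 encodes LGP2, a helicase that modulates RIG-I and MDA5. Its log2 signal was -1.05 and -1.33 after miR-629-3p, -2.40 and -2.35 after miR-210-3p, -1.94 and -1.81 after miR-874-3p, and -1.85 and -1.81 with NC. The miR-629-3p arrays lay above and the miR-210-3p arrays below all the rest, with a difference from NC of 0.64 (SE 0.11, adjusted p = 0.019) and -0.55 (SE 0.11, adjusted p = 0.0499). TLR3, the endosomal receptor, went the other way with miR-629-3p. It measured -0.31 and -0.50 after miR-629-3p, -0.42 and -0.44 after miR-210-3p, -0.57 and -0.41 after miR-874-3p, and 0.33 and 0.39 with NC. The NC arrays stood apart from all the others, and TLR3 fell with each microRNA, by 0.77, 0.79 and 0.85 (SE 0.10; adjusted p = 0.00969, 0.0165 and 0.0424) with miR-629-3p, then miR-210-3p, then miR-874-3p. The 3 microRNA groups overlapped, and the same NC arrays enter the 3 values. NC also came from another supplier than the 3 microRNAs, and the part of this was not tested. With an array left out, the adjusted p rose to 0.0656 to 0.134 in 7 of 8 fits for miR-874-3p, to 0.0615 to 0.103 in 4 for miR-210-3p and to 0.052 and 0.0571 in 2 for miR-629-3p.

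DDX58, the gene of RIG-I, measured 2.90 and 2.59 after miR-629-3p, 1.39 and 1.24 after miR-210-3p, 1.23 and 1.68 after miR-874-3p, and 2.42 and 1.49 with NC. The NC arrays were nearly 2-fold apart, and the difference of miR-629-3p from NC was 0.80 (SE 0.33, adjusted p = 0.156), while that from miR-210-3p was 1.44 (adjusted p = 0.0318). A second DDX58 probe, above background on all 8 arrays, gave -0.22 for miR-629-3p against miR-210-3p (adjusted p = 0.724) and -1.06 against miR-874-3p, so the 2 probes went opposite ways. IFIH1, the gene of MDA5, was 0.26 above NC with miR-629-3p (adjusted p = 0.2) and 0.77 above miR-874-3p (adjusted p = 0.0163).

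Of the 4 transcription factors, only IRF9 passed the adjusted test against NC. IRF9, the DNA-binding partner of STAT2, measured 2.03 and 1.98 after miR-629-3p, 0.83 and 0.71 after miR-210-3p, 1.26 and 1.49 after miR-874-3p, and 1.67 and 1.73 with NC. The 4 groups did not overlap, with miR-629-3p above NC, NC above miR-874-3p and miR-210-3p the lowest. IRF9 fell with miR-210-3p by 0.93 (SE 0.10, adjusted p = 0.0127) and differed between miR-629-3p and miR-210-3p by 1.23 (adjusted p = 0.00329). Its dimmer second probe, above background on 7 arrays, gave 1.20 (adjusted p = 0.024) for the latter and -0.07 (adjusted p = 0.881) for the former, and 1.12 for miR-629-3p against NC (adjusted p = 0.035), where the probe used gave 0.31 (adjusted p = 0.0913). STAT2 and IRF7, a regulator of interferon genes, differed from NC in no group at an adjusted p under 0.05, but were higher with miR-629-3p than with miR-210-3p (0.74, adjusted p = 0.00904, and 0.47, adjusted p = 0.035). IRF1 was 2.47 and 1.27 on the NC arrays and 0.99 to 1.38 on the other 6, with NC replicate 1 far above the rest.

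The IFIT proteins bind viral RNA lacking the host cap methylation. IFIT1 measured 5.57 and 5.47 after miR-629-3p, 4.23 and 4.24 after miR-210-3p, 4.03 and 4.43 after miR-874-3p, and 4.69 and 4.54 with NC. IFIT3 measured 3.77 and 3.60, 2.52 and 2.51, 2.23 and 2.46, and 2.99 and 2.80 in the same order of groups. For both, the miR-629-3p arrays were the highest and the NC arrays followed. The other 2 groups overlapped for IFIT1, while for IFIT3 the miR-874-3p arrays were the lowest. IFIT1 rose by 0.91 (SE 0.15, adjusted p = 0.0165), or 1.87-fold, and IFIT3 by 0.79 (SE 0.12, adjusted p = 0.0146), or 1.72-fold, with miR-629-3p. Their differences from NC with miR-210-3p were -0.38 each (adjusted p = 0.179 and 0.118). IFIT2 and IFIT5, on the probes used, stayed within 0.3 of NC in every group, and none of these differences had an adjusted p under 0.05. A second IFIT2 probe, above background on all 8 arrays, gave -0.34 with miR-210-3p and 0.27 with miR-629-3p against NC (adjusted p = 0.0924 and 0.108), and 0.62 between these microRNAs (adjusted p = 0.012), where the probe used gave 0.19.

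The OAS enzymes make oligoadenylates that activate RNase L, and OASL is a relative without that activity that binds RIG-I. OASL, with its probe at chr12:121458320-121458379 (hg19), measured 2.44 and 2.15 after miR-629-3p, -1.06 and -0.95 after miR-210-3p, -0.02 and 0.86 after miR-874-3p, and 0.94 and 0.35 with NC. It changed in opposite directions by nearly the same amount, up by 1.65 with miR-629-3p (SE 0.33, adjusted p = 0.0287) and down with miR-210-3p, at -1.66 (SE 0.33, adjusted p = 0.0495). Between these 2 microRNAs the difference was 3.30 (adjusted p = 0.00496), or 9.86-fold. The miR-874-3p and NC arrays overlapped.

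OAS2 was -1.60 and -1.91 after miR-629-3p, -3.04 and -3.48 after miR-210-3p, -2.59 and -2.73 after miR-874-3p, and -2.03 and -1.46 with NC, and it was well above background on 6 arrays. It fell with miR-210-3p by 1.52 (SE 0.24, adjusted p = 0.0308). Another OAS2 probe, above background on 2 arrays, gave 0.07 for that comparison (adjusted p = 0.841). OAS1 was -1.29 and -1.32, -2.41 and -1.95, -1.78 and -2.23, and -1.61 and 0.42 in the same order. Its call with miR-210-3p (-1.59, SE 0.63, adjusted p = 0.19) thus rests on NC replicates far apart, with a difference of -2.60 (adjusted p = 0.0313) without NC replicate 1 and of -0.57 (adjusted p = 0.303) without NC replicate 2. OAS3 was -0.39 from NC with miR-210-3p (adjusted p = 0.0525), and -0.10 on its other probe (adjusted p = 0.811). EIF2AK2, the gene of the RNA-activated kinase PKR, measured 4.97 to 5.17 on the 8 arrays, and its difference from NC was 0.07 for miR-629-3p, 0.00 for miR-874-3p and 0.04 for miR-210-3p.

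The MX proteins are GTPases that trap viral nucleocapsids. MX1 measured 0.32 and 0.37 after miR-629-3p, -0.82 and -0.45 after miR-210-3p, -0.21 and 0.13 after miR-874-3p, and 0.33 and 0.43 with NC. It fell with miR-210-3p by 1.02 (SE 0.16, adjusted p = 0.032), and the miR-629-3p arrays overlapped those of NC. MX2 overlapped NC in every group on the probe used. Its other probe, above background on 4 arrays, was -3.59 and -4.86 after miR-210-3p and -2.40 and -3.19 with NC, without overlap (-1.43, adjusted p = 0.131). GBP1, a guanylate-binding protein, was -1.99 and -1.97 after miR-629-3p, -1.5 and -1.43 after miR-210-3p, -1.09 and -1.42 after miR-874-3p, and -1.14 and -0.97 with NC. It fell with miR-629-3p by 0.92 (SE 0.13, adjusted p = 0.0125), and the miR-629-3p arrays were the lowest of the 8.

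The IFITM proteins, which block fusion of viruses with the membrane, and BST2, or tetherin, which holds budding virus at the cell surface, formed the role group in which all 4 members fell with miR-629-3p. IFITM1 measured 1.14 and 1.12 after miR-629-3p, 0.99 and 1.15 after miR-210-3p, 2.61 and 2.83 after miR-874-3p, and 2.5 and 2.61 with NC. Arrays of miR-210-3p overlapped those of miR-629-3p, and both lay more than 1 below all the others. The difference from NC was -1.42 with miR-629-3p (SE 0.11, adjusted p = 0.00361) and -1.48 with miR-210-3p (SE 0.11, adjusted p = 0.00642), or 2.68-fold and 2.79-fold. Its second probe gave -1.19 (adjusted p = 0.00538) and -1.43 (adjusted p = 0.00637). The miR-210-3p value had an adjusted p of 0.0501 without miR-210-3p replicate 1. Both groups lie in slide row 1 and miR-874-3p and NC in row 2, so for IFITM1 the row and the pattern cannot be told apart.

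BST2 had the same arrangement, at -2.40 and -2.49 after miR-629-3p, -2.49 and -2.75 after miR-210-3p, -1.70 and -1.22 after miR-874-3p, and -1.25 and -1.36 with NC. It fell by 1.14 (SE 0.18, adjusted p = 0.0155) and 1.31 (adjusted p = 0.0209) with the first 2. Its other probe, above background on 4 arrays, gave -0.42 and -0.80 (adjusted p = 0.397 and 0.179), and 0.29 for miR-629-3p against miR-874-3p, where the probe used gave -0.98. IFITM2 was 6.09 and 6.12 after miR-629-3p, 6.52 on both miR-210-3p arrays, 6.37 and 6.41 after miR-874-3p, and 6.67 and 6.75 with NC. IFITM3 was 6.86 and 6.94, 7.27 and 7.25, 7.15 and 7.16, and 7.46 and 7.49 in the same order. Both fell with miR-629-3p, by 0.61 and 0.57 (SE 0.07; adjusted p = 0.00715 and 0.00798). IFITM2 and IFITM3 are near-identical paralogs, so their probes may share signal and the 2 values are uncertain as separate measurements.

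In the ISG15 system, ISG15 is the ubiquitin-like modifier, HERC5 the ligase that attaches it, HERC6 a relative of HERC5 and USP18 the protease that removes it and restrains interferon signalling. ISG15 measured 5.36 and 5.08 after miR-629-3p, 4.24 and 4.19 after miR-210-3p, 4.27 and 4.48 after miR-874-3p, and 4.53 and 4.46 with NC. It rose with miR-629-3p by 0.73 (SE 0.12, adjusted p = 0.0177), or 1.66-fold. HERC5 was 0.36 and 0.08, -1.09 and -1.05, -1.5 and -0.70, and -0.79 and -0.80, and its difference of 1.01 (SE 0.26) between miR-629-3p and NC had an adjusted p of 0.0506. For both genes the miR-629-3p arrays were above all the others. USP18 was -0.51 and -0.46 after miR-629-3p, -0.87 and -0.81 after miR-210-3p, -0.85 and -0.82 after miR-874-3p, and -0.36 and -0.31 with NC. It fell with miR-210-3p by 0.51 (SE 0.07, adjusted p = 0.0193), and its differences from NC with miR-874-3p and miR-629-3p were -0.50 (adjusted p = 0.06) and -0.15 (adjusted p = 0.178). HERC6 differed from NC in no group at an adjusted p under 0.05.

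**Figure D3:**
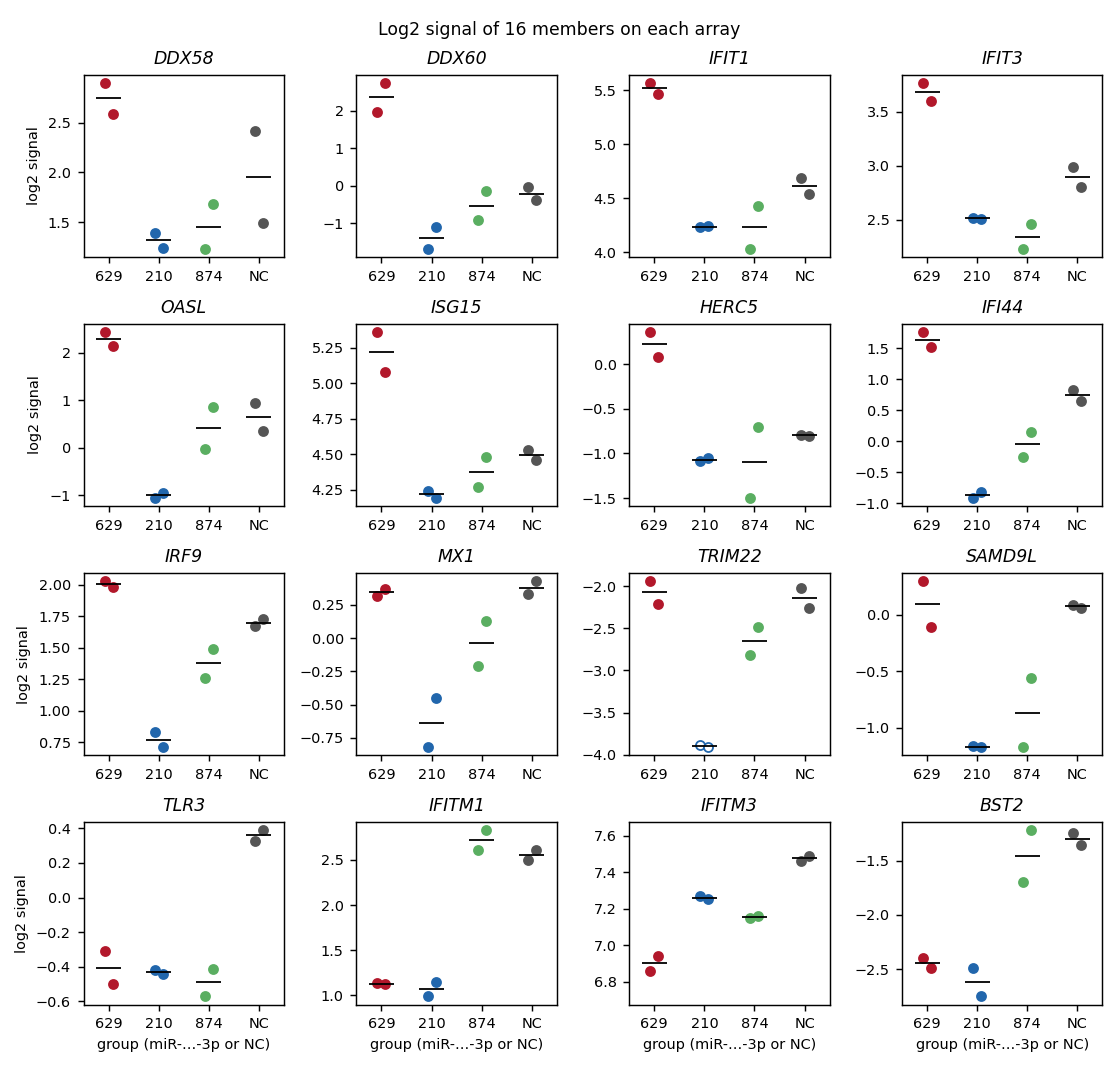
Log2 signal (y axis, own scale in each panel, spanning at least 1) of 16 members on the 2 arrays of each group (points), with the group mean (line), where open points mark a group in which the gene was well above background on 0 of 2 arrays. The miR-629-3p points are the highest in the upper 2 rows of panels, the miR-210-3p points are the lowest for IRF9, MX1 and TRIM22, and IFITM1 and BST2 are low with both.

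Among the IFI genes, 3 measured members fell with miR-210-3p (IFI6, IFI27 and IFI44). IFI44, a cytoplasmic protein linked to slowed cell growth, measured 1.76 and 1.51 after miR-629-3p, -0.92 and -0.82 after miR-210-3p, -0.25 and 0.15 after miR-874-3p, and 0.83 and 0.64 with NC. The 4 groups did not overlap. IFI44 rose with miR-629-3p by 0.90 (SE 0.17, adjusted p = 0.0222), fell with miR-210-3p by 1.60 (SE 0.17, adjusted p = 0.0122) and differed between them by 2.5 (adjusted p = 0.00222), or 5.67-fold. Its neighbour IFI44L was well above background on the 2 miR-629-3p arrays only, at -1.96 and -2.48, at least 1.53-fold above NC (adjusted p = 0.161), 2.27-fold above miR-210-3p (adjusted p = 0.00853) and 1.67-fold above miR-874-3p (adjusted p = 0.112). For such a bound, a dim array counted as its dimmest signal well above background, or as the probe's value where that was higher.

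IFI6, a mitochondrial and endoplasmic reticulum protein, was 0.75 and 0.82 after miR-629-3p, 0.32 and 0.43 after miR-210-3p, 0.62 and 0.65 after miR-874-3p, and 0.73 and 0.81 with NC, and fell with miR-210-3p by 0.40 (SE 0.08, adjusted p = 0.0444). IFI27, a related protein, was -1.61 and -1.74, -2.71 and -2.46, -2.0 and -2.01, and -1.80 and -2.0, and fell with miR-210-3p by 0.68 (SE 0.12, adjusted p = 0.0369). For both, the miR-210-3p arrays were the lowest of the 8 and the miR-629-3p and NC values were near each other. IFI35 was lower than NC by 0.70 with miR-210-3p, with an adjusted p of 0.142.

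Among the enzymes, ISG20, an RNA exonuclease, measured 4.18 on both miR-629-3p arrays, 3.69 and 3.68 after miR-210-3p, 3.61 and 3.86 after miR-874-3p, and 3.81 and 3.80 with NC, and rose with miR-629-3p by 0.38 (SE 0.09, adjusted p = 0.0481). CMPK2, a mitochondrial nucleotide kinase beside RSAD2 in the genome, was -1.14 and -1.13, -2.49 and -3.38, -3.15 and -2.19, and -2.23 and -2.49, with a difference of 1.22 (SE 0.40, adjusted p = 0.0947) between miR-629-3p and NC. For both, the miR-629-3p arrays were above all the others.

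SAMD9L, a growth-restraining antiviral protein, measured 0.30 and -0.11 after miR-629-3p, -1.16 and -1.17 after miR-210-3p, -1.17 and -0.56 after miR-874-3p, and 0.09 and 0.06 with NC. It fell with miR-210-3p by 1.24 (SE 0.23, adjusted p = 0.0408), while the miR-629-3p arrays lay on either side of NC. Its second probe, above background on 7 arrays, gave -0.97 (adjusted p = 0.195). Its paralog SAMD9 and the ADP-ribosyltransferase family members PARP9 and PARP14 differed from NC in no group at an adjusted p under 0.05. TRIM22, a ubiquitin ligase with a probe at chr11:5731591-5731650 (hg19), was -1.94 and -2.21 after miR-629-3p, -2.82 and -2.48 after miR-874-3p and -2.02 and -2.26 with NC, and was not well above background with miR-210-3p. It was at least 2.40-fold lower with miR-210-3p than with NC (adjusted p = 0.00986), at least 2.51-fold lower than with miR-629-3p and at least 1.68-fold lower than with miR-874-3p. The p-value uses miR-210-3p signals that were not well above background.

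SP100, a nuclear body protein, was 7.91 and 7.99 after miR-629-3p, 8.4 and 8.37 after miR-210-3p, 8.31 and 8.16 after miR-874-3p, and 8.39 and 8.41 with NC. It fell with miR-629-3p by 0.46 (SE 0.08, adjusted p = 0.0197) on this probe, whereas the gene's other probes gave 0.01 and -0.02 (adjusted p = 0.964 and 0.922), all on 8 arrays above background. For miR-629-3p against miR-210-3p the other probes gave 0.23 and -0.26, where the probe used gave -0.44. TRIM21, an antibody receptor and ubiquitin ligase, and EPSTI1, PLSCR1 (a phospholipid scramblase) and LGALS3BP (a secreted galectin-binding protein) differed from NC in no group at an adjusted p under 0.05. EPSTI1 and PLSCR1 were higher with miR-629-3p than with miR-210-3p, by 0.47 (adjusted p = 0.0218) and 0.66 (adjusted p = 0.0374).

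The promoters of the members are shown because the members are grouped by a shared response. RefSeq promoters of GRCh38.p14, 250 bases before to 50 after the annotated start, were found for 40 members and searched on both strands for GAAANNGAA, the core of the interferon-stimulated response element, the site of IRF9 with STAT2 and of other IRF proteins. Overlapping matches were counted. The core was present in 27 of 40 member promoters (67.5%) and in 2264 of 27305 promoters of all genes (8.29%). With the core followed directly by ACT the shares were 37.5% and 0.271%. Matches say only that these letters are in the window, and not that a factor bound there.

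Windows around the core with that longer form, upstream of the start, are given for 6 members that were higher with miR-629-3p than with miR-210-3p and then for 3 that fell with miR-629-3p. Each is written 5′ to 3′ on the gene's strand with the core, in either orientation, in capitals. They lie at chr4:168318772-168318830 (minus strand, DDX60), chr10:89392483-89392541 (plus, IFIT1), chr10:89327851-89327909 (plus, IFIT3), chr1:1013365-1013423 (plus, ISG15), chr4:88456970-88457028 (plus, HERC5), chr1:78649747-78649788 (plus, IFI44), chr11:313975-314033 (plus, IFITM1), chr11:320862-320920 (minus, IFITM3) and chr19:17405727-17405785 (minus, BST2).
DDX60: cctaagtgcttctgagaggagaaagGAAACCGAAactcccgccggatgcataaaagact
IFIT1: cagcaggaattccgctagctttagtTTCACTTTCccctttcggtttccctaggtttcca
IFIT3: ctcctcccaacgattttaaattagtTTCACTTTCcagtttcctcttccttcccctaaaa
ISG15: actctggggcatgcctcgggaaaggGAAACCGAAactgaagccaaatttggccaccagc
HERC5: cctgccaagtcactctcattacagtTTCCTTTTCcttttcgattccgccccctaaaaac
IFI44: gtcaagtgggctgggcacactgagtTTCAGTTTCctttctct
IFITM1: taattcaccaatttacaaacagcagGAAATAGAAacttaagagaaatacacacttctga
IFITM3: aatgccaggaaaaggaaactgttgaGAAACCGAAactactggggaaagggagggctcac
BST2: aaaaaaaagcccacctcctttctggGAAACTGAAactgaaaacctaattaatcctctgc

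The core was thus found in promoters of members that went in opposite directions. Among members with a promoter, it was in 6 of the 6 that rose and 5 of the 6 that fell with miR-629-3p against NC (100% and 83.3%). It was in 14 of the 19 that were higher with miR-629-3p than with miR-210-3p at an adjusted p under 0.05 (73.7%) and in 12 of the 18 other tested members (66.7%). The longer form was in 5 of the 6 that rose and 3 of the 6 that fell with miR-629-3p against NC (83.3% and 50%), and in 10 of those 19 and 5 of those 18 (52.6% and 27.8%). These shares rest on few promoters and their difference was not tested.

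**Figure D4:**
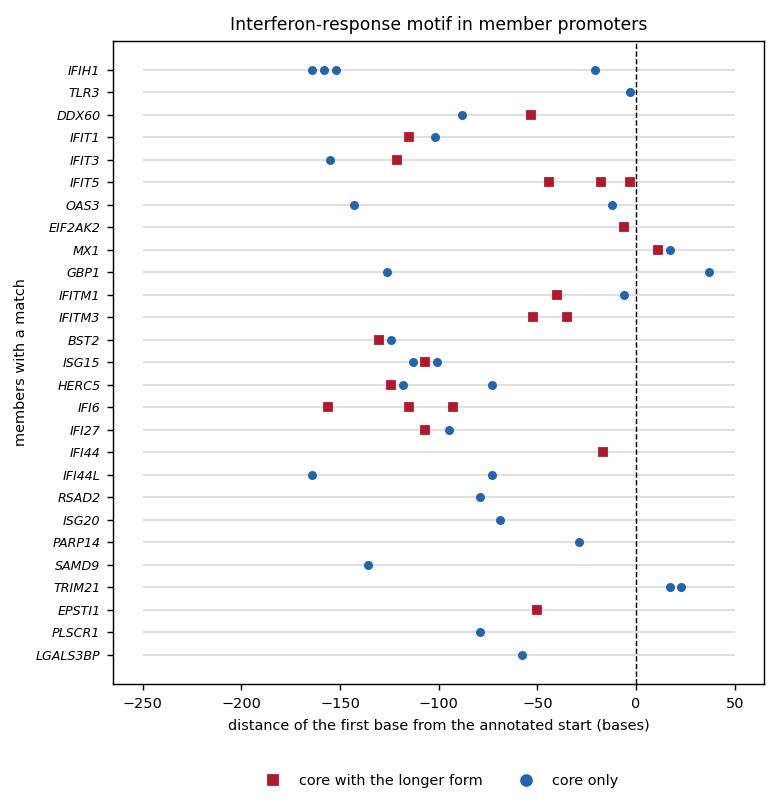
Position of the first base of each core match (points) relative to the annotated start at 0 (x axis, bases), for the 27 members with a match (y axis), with squares where the core is part of the longer form and grey lines for the 300 bases searched. Most matches lie upstream of the start, in members of both directions.

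Genes around the members in the same pathway were taken from a separate list of 119, of which 115 were on the array and 96 could be tested. Of these, miR-629-3p had 7 that rose (7.29%, beside 9.28% of all genes) and 10 that fell (10.4%, beside 7.47%). With miR-210-3p, 2 rose (2.08%, beside 3.85%) and 3 fell (3.12%, beside 2.2%), and with miR-874-3p, 0 rose and 1 fell, beside 0.216% and 0.207%. For miR-629-3p and miR-210-3p these shares were near those of all genes. Their median log2 differences from NC were 0, -0.06 and -0.12. By role, 5 of 16 interferon genes on the array could be tested, with 16 of 16 receptors, JAK and STAT genes and inhibitors, 27 of 29 adaptors and kinases of RNA and DNA sensing, and 48 of 54 other interferon-stimulated genes.

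IFNAR1, a chain of the type I interferon receptor, was 1.82 on both miR-629-3p arrays, 1.06 and 1.00 after miR-210-3p, 0.71 and 0.95 after miR-874-3p, and 1.19 and 1.07 with NC, and rose with miR-629-3p by 0.68 (SE 0.10, adjusted p = 0.0143). The other chain, IFNAR2, and the kinases JAK1 and TYK2 differed from NC by -0.17 to 0.25 over the 3 microRNAs. MAVS, the mitochondrial adaptor of RIG-I and MDA5, was 0.41 above NC with miR-629-3p (SE 0.12, adjusted p = 0.0741). The kinase TBK1 and its substrate IRF3 lay within 0.21 of NC in every group.

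At an adjusted p under 0.05 and at least 2-fold against NC, 3 genes of that list were called. They were 1 of 96 higher with miR-629-3p (1.04%, beside 2.66% of all genes) and 2 higher with miR-210-3p (2.08%, beside 0.912%), with 0 lower in either (beside 1.29% and 0.592%). LAMP3, a lysosomal membrane protein, was 0.68 and 0.63 after miR-629-3p and -0.44 and -0.83 with NC, a rise of 1.29 (SE 0.13, adjusted p = 0.0064). CD274, the immune checkpoint ligand PD-L1, was 0.20 and 0.22 after miR-210-3p and -1.18 and -1.20 with NC, a rise of 1.40 (SE 0.16, adjusted p = 0.0149), and it also rose with miR-629-3p by 0.64 (adjusted p = 0.0493). IFNK, a type I interferon of keratinocytes, was -0.07 and -0.21 after miR-210-3p and not well above background in the other groups, and was at least 6.45-fold higher than with NC (adjusted p = 0.0179). It entered the tests through the miR-210-3p arrays alone, and its p-value uses NC signals that were not well above background. The count of genes higher with miR-210-3p includes it.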

How the data were processed

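The members, the pathway list and the tests were chosen with earlier results of these data known, so no pattern seen before is offered as independent support. For each array the authors deposited the scanner output of Agilent Feature Extraction 11.5.1.1 (per the labels), whose intensity values are background-subtracted, spatially detrended and not normalized between arrays. A log2 table deposited by the authors differed from the scanner-derived values by a constant of -0.049 to 0.004 per array, and served as an alternative.

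Control spots and spots with an outlier flag (87 to 346 of 60901) were left out, log2 spot values were averaged by probe, and the 75th percentile over gene probes was subtracted. Probes with 8 values were kept where both arrays of some group were well above background, and the brightest kept probe stood for its gene, which left 21283 genes. They were fitted without covariates by lmFit and eBayes of limma 3.58.1 (R 4.3.3), with 4 residual and 1.68 prior degrees of freedom. Fold changes against a group below background are bounds. The number of arrays limits the precision. The fit was tested on simulated data. Named were all members, and other pathway genes at an adjusted p under 0.05 and 2-fold against NC, with IFNAR1, IFNAR2, JAK1, TYK2, MAVS, IRF3 and TBK1. Some genes of the lists are not reported here by name, though the counts over the lists include them.

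Alternatives were normexp background correction, other normalizations, the deposited log2 table, outlier spots kept, other detection filters, other probes, only the groups compared, eBayes with trend, a replicate block, the t-test of the methods, and each array left out. Seed sites in transcripts were not analysed here. Promoters and microRNAs are those of RefSeq.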

Additional observations from a re-analysis of the deposited data

Results flagged for a closer look

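Several listed genes left out of the comparisons were well above background on 1 microRNA array and on no NC array. RSAD2 was at -2.09 on miR-629-3p replicate 1, where the higher NC array was at -4.43. XAF1 was at -2.91 on miR-629-3p replicate 2 (NC -4.20). Among the other pathway genes, the chemokine gene CXCL10 was at 0.55 on miR-629-3p replicate 1 (NC -4.77) but at -5.60 on the other miR-629-3p array. CXCL9 was at -3.25 on miR-210-3p replicate 1 (NC -5.12), IFNA8 at -1.87 on miR-629-3p replicate 2 (NC -5.13), and RTP4 reached -3.17 on miR-629-3p replicate 1 (NC -3.41). In each case the signal was above background on 1 array of 8, so no difference between groups can be drawn from it.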

How the results depend on the processing

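The 6 medians of the members kept their sign under every alternative, and 0 of the 94 fitted differences of single members turned sign under a change of scaling, filter or test. Counts below are of members called, in the direction named. Normexp background correction with an offset of 50, under which calls over all genes also fell (from 770, 350, 245, 681 and 464 to 130, 105, 47, 165 and 93 in the order given next), gave 2 higher and 1 lower for miR-629-3p against NC, 1 lower for miR-210-3p against NC, 6 higher for miR-629-3p against miR-210-3p and 1 lower for miR-210-3p against miR-874-3p. It drew the medians in to -0.27 (miR-210-3p against NC), -0.17 (miR-874-3p against NC), 0.27 (miR-629-3p against miR-210-3p) and 0.17 (miR-629-3p against miR-874-3p). The t-test of the methods called 7 lower for miR-210-3p against NC, 5 higher for miR-629-3p against miR-874-3p and 2 lower for miR-210-3p against miR-874-3p. Over all genes this t-test also called fewer, with 155, 380 and 221 in place of 245, 603 and 464. After Benjamini-Hochberg adjustment it called 0 in every comparison except miR-629-3p against miR-210-3p, with 3 higher, and over all 21283 genes it called 0 or 1 in each direction in the former, and 176 higher in the latter. With limma at an adjusted p under 0.05 and 2-fold, miR-629-3p against NC had 2 higher, and at any fold it had 8 higher and 7 lower, miR-874-3p against NC 1 lower, miR-629-3p against miR-210-3p 25 higher and 4 lower, miR-629-3p against miR-874-3p 15 higher and 4 lower, and miR-210-3p against miR-874-3p 8 lower. Of all genes, 9.34% were higher and 6.88% lower at any fold for miR-629-3p against miR-874-3p. The 4 lower members there (8.7%) were thus near the share of all genes. For miR-210-3p against miR-874-3p, 3.47% of all genes were lower. Centring on the median gave 2 lower for miR-629-3p against miR-874-3p, with 525 of all genes in place of 492. A floor at the dimmest detected signal and detection on all 8 arrays each gave 3 lower for miR-210-3p against miR-874-3p. Over all genes they gave 405 of 21283 and 217 of 17406, in place of 464 of 21283. The mean of all kept probes gave 1 lower for miR-629-3p against NC and 1 for miR-874-3p against NC, as did eBayes with trend for the latter. Over all genes the mean of probes gave 410 in place of 350 and 149 in place of 108, and eBayes with trend gave 134. The cause was not tested.

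With 1 array left out, the lone array of its group is assumed to vary like the others. The members' median against NC was then 0.06 to 0.14 with miR-629-3p, -0.48 to -0.39 with miR-210-3p and -0.47 to -0.22 with miR-874-3p. For miR-629-3p it was 0.33 to 0.52 against miR-874-3p and 0.48 to 0.6 against miR-210-3p. For miR-210-3p against miR-874-3p it was -0.27 to -0.01.

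Another probe of the gene gave the opposite sign for DDX58 (-0.22 for miR-629-3p against miR-210-3p, -1.06 against miR-874-3p), BST2 (0.29 for miR-629-3p against miR-874-3p), OAS2 (0.07 for miR-210-3p against NC) and SP100 (0.01 for miR-629-3p against NC, 0.23 against miR-210-3p). Same-numbered arrays did not deviate together (r of -0.11 to 0.03 over 6 pairs of groups). This cannot show whether same-numbered samples were prepared together, which the labels do not state. Of the 94 differences of single members, 87 had an adjusted p under 0.05, and 82 of these lost it in the t-test of the methods, 41 with only the groups compared, 39 with no filter on detection, 21 with the mean of all kept probes and 29 with a replicate block. The block and the fit of only the groups compared left every count of members called within 1.5 times its value. Only 42.2% to 49.8% of probes were well above background on an array, which limits what the dim members OAS2, CMPK2, TRIM22 and IFI44L can show.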
